A study of Mus musculus with 24 samples.

Results

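The SUMO conjugation machinery was represented by 8 of the 26995 gene symbols in the tables: the modifiers *Sumo2* and *Sumo3*, the E1 subunits *Sae1* and *Uba2*, and the PIAS ligases *Pias1*, *Pias2*, *Pias3* and *Pias4*. Each gene was taken by its symbol. Where a symbol had several 3′UTR entries, the entry with the highest mean total read count over the 24 libraries stood for the gene. SUMO proteins are small modifiers that are attached to lysines of other proteins, many of them nuclear. A heterodimeric E1 made of SAE1 and UBA2 activates SUMO, an E2 enzyme takes it over, and E3 ligases such as the PIAS proteins promote its transfer to substrates. Proteases of the SENP and DeSI families remove it again. In adipogenesis sumoylation is known to act on several transcription factors, PPARγ among them.

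SLAMseq and QuantSeq counts were 2 readouts of each 3T3-L1 library. 3T3-L1 is a clonal mouse pre-adipocyte line that becomes fat-storing adipocytes on hormonal induction. Cells were in DMSO or in 0.5 μM ML-792, an inhibitor of the SUMO E1, and were collected before induction (day -2) or at day 1, 3 or 7 after it, with 3 biological replicates (A, B and C) for each of the 8 conditions. Induction medium held fetal bovine serum, dexamethasone, 3-isobutyl-1-methylxanthine and insulin, and from day 3 a maintenance medium with serum and insulin replaced it. Before harvest all 24 cultures were labelled with 100 μM 4-thiouridine for 45 min. How long ML-792 had been on the cells at day -2 is not given in the sources used here. ML-792 acts on the enzyme, so a transcript of the pathway is no measure of its inhibition, and no protein was measured in these libraries.

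The entry of *Sumo2* (NM_133354.2) was the 3′UTR at chr11:115523109-115523706 on the minus strand (mm10), and that of *Sumo3* (NM_001301672.1) was at chr10:77616259-77618331 on the plus strand. *Sae1* (NM_019748.3) was counted at chr7:16327050-16327836 and *Uba2* (NM_016682.2) at chr7:34140697-34141284, both on the minus strand. *Pias1* (XM_006511302.3) was counted at chr9:62878366-62881967 on the minus strand and *Pias2* (NM_001164167.1) at chr18:77152698-77155708 on the plus strand. *Pias3* (NM_146135.2) was counted at chr3:96705116-96706070 on the plus strand, where the annotation also places *Nudt17* on the opposite strand. The entry of *Pias4* (NM_021501.4), at chr10:81153961-81154100 on the minus strand, was only 140 bases long with 24 T bases, against 2073 bases and 625 T bases in *Sumo3*. Of the 549 windows of 50 bases, the read length, in the *Sumo2* entry, 549 had a perfect copy elsewhere in the mouse genome. *Pias2* had 3 such windows of 2962 and the other 6 entries had 0. By a looser measure, matches elsewhere of at least 90% identity over 50% or more of the entry, *Sumo2* had 15, *Sumo3* had 1 and the other members had 0.

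Total reads in 3′UTR entries ranged from 13554718 to 27013352 per library. Labelled reads, those with 1 or more T to C conversions, ranged from 115709 to 820046. They were taken to mark RNA made during the 4-thiouridine pulse. All 24 libraries were labelled, so T to C reads from other sources were not measured. The 6 adipocyte markers summed to 22198 to 23542 normalized total reads at day -2 and to 619775 to 703041 at day 7 in DMSO, and 6 of 6 were called higher at days 3 and 7. Of 5 pre-adipocyte markers, 4 were called lower at both days, and of 6 markers of dividing cells 3 were called higher at day 1 and 5 lower at day 7. Macrophage markers summed to at most 145.8, endothelial markers to at most 19.6 and muscle markers to at most 3.49 normalized reads in every library. In these bulk libraries fewer cells of a type and less RNA per cell cannot be told apart, and the part of the shift in cell state in the changes by day was not tested. Replicate B was the lowest library of its condition in 8 of 8 conditions for *Sumo3* and *Pias4* and in 7 of 8 for *Pias3*, and calls that changed without it are given beside the result.

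Of the 8 genes, *Sumo3* alone was called higher in ML-792 than in DMSO, at days 1 and 3, by 2.15-fold and 2.37-fold. At day 1 its normalized total reads were 6645, 4738 and 6489 in DMSO and 16003, 8763 and 13651 in ML-792, for replicates A, B and C. At day 3 they were 5859, 3907 and 5556 in DMSO and 15973, 8067 and 12304 in ML-792. At both days the lowest ML-792 library lay above the highest DMSO library. The log2 fold change was 1.10 ± 0.28 (SE, n = 3 per group) at day 1, with an adjusted p of 0.0176 (edgeR quasi-likelihood), and 1.25 ± 0.28 at day 3, with an adjusted p of 0.0039. At the threshold of 0.1 used for ML-792, 1 of 8 members was called at each of these days. Over all genes tested, 8.03% were called at day 1 and 15.4% at day 3.

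*Sumo3* encodes a SUMO whose mature form is nearly identical to that of *Sumo2*, and both can form chains. Before induction its libraries held 5240, 3146 and 5511 normalized reads in DMSO and 7959, 4936 and 7440 in ML-792, and the groups overlapped. At day -2 the log2 fold change was 0.55 (95% interval 0.01 to 1.09), with an unadjusted p of 0.0585 and an adjusted p of 1. All 95% intervals given here are normal approximations from the SE. They are narrower than the quasi-likelihood test implies, which is why this one leaves out 0. At day 7 the reads were 7866, 6388 and 7344 in DMSO and 10438, 5805 and 8767 in ML-792, again overlapping. There the log2 fold change was 0.21 (95% interval -0.33 to 0.75), with an adjusted p of 0.775. Whether the difference itself changed between days was tested by the interaction of day and treatment, and *Sumo3* had an adjusted p of 0.278. The interaction called 0 of 8 members (1 had an unadjusted p under 0.05, and DESeq2 called 0), against 11.9% of all genes.

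The calls for *Sumo3* in ML-792 depended on which replicates were kept, while the direction was the same in each letter. Between libraries of the same letter, ML-792 over DMSO was 2.408, 1.85 and 2.104 at day 1 for A, B and C. At day 3 it was 2.726, 2.064 and 2.215. Replicate B was the lowest *Sumo3* library in 8 of 8 conditions, and the main fits leave differences between letters in their error. Without replicate B the adjusted p was 5.8e-06 at day 1, 7.6e-07 at day 3 and 0.00216 for the interaction. Without replicate A it was 0.307 at day 1 and 0.133 at day 3, and without replicate C it was 0.273 and 0.116. Both calls were thus lost, with log2 fold changes of 1.00 to 1.30 in these fits. Over all genes, 1070 were called at day 1 with all libraries, 294 without A, 448 without C and 1333 without B. At day 3 these counts were 2051, 798, 980 and 2582. Fits without A or C also called fewer of all genes in every comparison between days, so lost calls are not particular to the members.

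**Figure D1:**
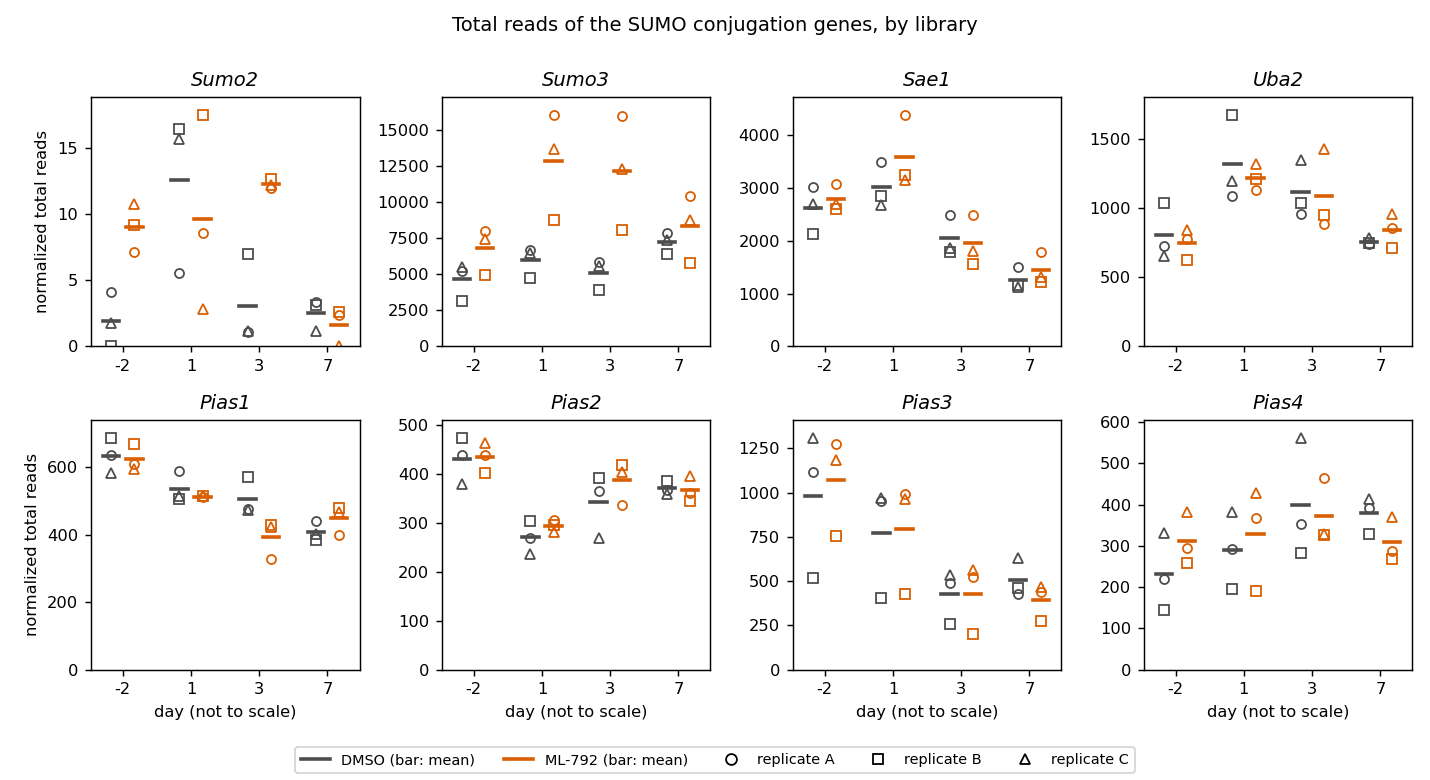
Normalized total reads (vertical axes, linear and starting at 0, with a different range in each panel) of the 8 genes by day, in DMSO (grey) and ML-792 (orange). Symbols are single libraries of replicates A, B and C and bars are means of 3. For Sumo3 the ML-792 libraries at days 1 and 3 lie between 8067 and 16003 and the DMSO libraries between 3907 and 6645, while Sumo2 stays at or below 17.5 throughout.

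*Sumo2* was near the limit of counting, with 0 to 19 raw reads in each of the 24 libraries. Its DMSO libraries held 4.09, 0 and 1.78 normalized reads at day -2, 5.52, 16.4 and 15.7 at day 1, 1.09, 6.96 and 1.16 at day 3, and 3.39, 3.13 and 1.14 at day 7. In ML-792 they held 7.13, 9.19 and 10.7 at day -2, 8.56, 17.5 and 2.80 at day 1, 11.96, 12.7 and 12.2 at day 3, and 2.38, 2.57 and 0 at day 7. Libraries in ML-792 were above all DMSO libraries at days -2 and 3 and overlapped them at days 1 and 7, and no comparison of *Sumo2* was called, with adjusted p of 1 at day -2 and 0.204 at day 3. Without replicate B the adjusted p at day 3 was 0.0879. Since every 50-base window of its 3′UTR has copies elsewhere, reads of *Sumo2* could be placed or dropped by the mapping rules, and how many were lost was not tested. Its reads are no measure of how abundant the *Sumo2* transcript is.

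Both E1 subunits had their highest mean at day 1, and *Sae1* was called lower at day 7 than at day -2. *Sae1* held 3009, 2121 and 2700 normalized reads at day -2 in DMSO, 3491, 2842 and 2676 at day 1, 2477, 1784 and 1865 at day 3, and 1501, 1155 and 1117 at day 7. The 3 libraries of day 7 were all below those of every other day. *Sae1* was 2.08-fold lower at day 7 than at day -2, a log2 fold change of -1.05 ± 0.20 (SE, n = 3 per group) with an adjusted p of 0.000434 in edgeR. Without replicate C the adjusted p was 0.0204, above the threshold of 0.01 used for the time course. A second *Sae1* entry that does not overlap the first, with a mean of 53.1 reads, gave -1.16 with an adjusted p of 0.0156.

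In ML-792 the *Sae1* libraries held 3078, 2593 and 2695 normalized reads at day -2, 4370, 3230 and 3143 at day 1, 2474, 1563 and 1807 at day 3, and 1784, 1220 and 1304 at day 7. Between day -2 and day 7 the fitted change was -0.96 ± 0.20 on the log2 scale, with an adjusted p of 0.00149 that rose to 0.0412 without replicate C. The order of the day means was that of DMSO, highest at day 1 and lowest at day 7. The 2 time courses share no libraries, but both hold replicates A, B and C, whose deviations were on average correlated across conditions.

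*Uba2* encodes the E1 subunit that holds the catalytic cysteine. In DMSO its libraries held 723, 1036 and 649 normalized reads at day -2, 1085, 1669 and 1197 at day 1, 953, 1036 and 1348 at day 3, and 738, 745 and 782 at day 7. All 3 day 1 libraries were above those of day -2, and the days -2 and 7 overlapped. Its log2 fold change at day 1 was 0.71 ± 0.22 with an adjusted p of 0.0249, which missed the threshold of 0.01. Without replicate B it passed at day 1 (0.00456) and at day 3 (0.00223). In ML-792 the reads were 779, 627 and 841 at day -2, 1126, 1209 and 1315 at day 1, 887, 947 and 1423 at day 3, and 855, 710 and 955 at day 7. Its log2 fold change at day 1 was 0.70 ± 0.19, with an adjusted p of 0.0122.

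The ratio of *Uba2* to *Sae1* within each library was higher at later days. On the log2 scale of total reads it was -1.72 ± 0.59 (SD, n = 3) at day -2 in DMSO, -1.20 ± 0.46 at day 1, -0.88 ± 0.46 at day 3 and -0.72 ± 0.27 at day 7. The ML-792 means were -1.90 ± 0.20, -1.54 ± 0.37, -0.85 ± 0.58 and -0.76 ± 0.31. Both entries keep their own length and T content in every library, so only its change is read, and the shift from day -2 to day 7 in DMSO was 0.99. In both treatments all 3 libraries of day 7 were above those of day -2. In DMSO the margin was small, with the highest day -2 library at -1.03 and the lowest day 7 library at -1.02.

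**Figure D2:**
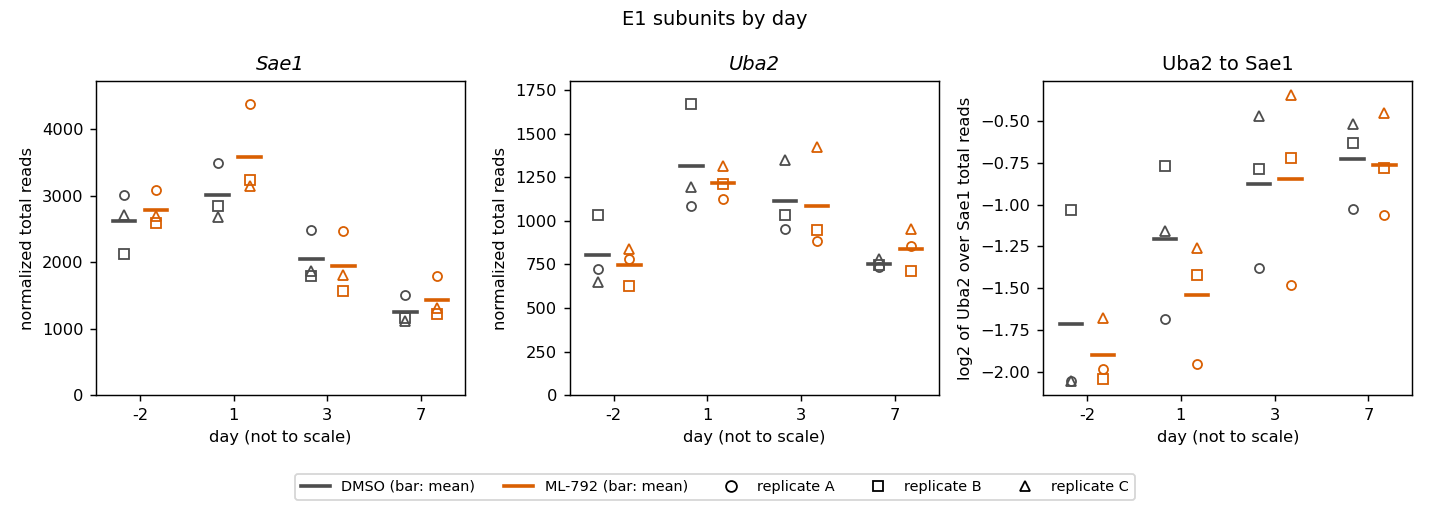
Normalized total reads of Sae1 and Uba2 (left and middle, axes from 0) and the log2 ratio of Uba2 to Sae1 total reads in each library (right, log2 axis) by day. Symbols are single libraries and bars are means of 3, in DMSO (grey) or ML-792 (orange). The mean ratio runs from -1.72 at day -2 to -0.72 at day 7 in DMSO.

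The PIAS ligases did not share one course. PIAS proteins were first described as binding partners of STAT factors and carry the RING-like domain of SUMO E3 ligases. *Pias1* held 637, 686 and 584 normalized reads at day -2 in DMSO, 589, 507 and 515 at day 1, 476, 572 and 475 at day 3, and 440, 386 and 403 at day 7. The day 7 libraries were all below those of the other days. *Pias1* was 1.55-fold lower at day 7 than at day -2, a log2 fold change of -0.63 ± 0.17 with an adjusted p of 0.0055. That call was lost without replicate A (0.0858), B (0.0104) or C (0.0464), and with every gene of at least 1 read kept (0.0335).

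In ML-792 *Pias1* held 610, 669 and 597 normalized reads at day -2, 511, 514 and 515 at day 1, 329, 431 and 424 at day 3, and 399, 481 and 469 at day 7. Its lowest mean was at day 3, where the difference from day -2 on the log2 scale was -0.67 ± 0.14 with an adjusted p of 0.00168. Without replicate A the adjusted p was 0.0392 and without replicate C 0.0239. At day 7 the change was -0.48 ± 0.14, with an adjusted p of 0.0141.

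*Pias2* was lowest at day 1 in both treatments. In DMSO it held 439, 473 and 379 normalized reads at day -2, 269, 305 and 238 at day 1, 366, 393 and 270 at day 3, and 368, 386 and 360 at day 7. In ML-792 it held 440, 402 and 464 at day -2, 306, 295 and 282 at day 1, 338, 419 and 405 at day 3, and 362, 345 and 396 at day 7. The day 1 libraries were below those of day -2 in both treatments. The log2 fold change at day 1 was -0.67 ± 0.20 in DMSO, with an adjusted p of 0.0213, and -0.56 ± 0.14 in ML-792, with an adjusted p of 0.00791. The ML-792 call was lost without replicate A (0.0849), B (0.0102) or C (0.14), and a second, non-overlapping *Pias2* entry with a mean of 43.3 reads gave a log2 fold change of 0.41 with an adjusted p of 0.407.

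Differences from day -2 in DMSO were negative for *Pias3* and positive for *Pias4*, and replicate B was the lowest in most conditions of both. *Pias3* held 1117, 521 and 1305 normalized reads at day -2 in DMSO, 953, 403 and 968 at day 1, 488, 260 and 536 at day 3, and 428, 464 and 631 at day 7. At day 3 the log2 fold change was -1.20 ± 0.37, with an adjusted p of 0.0168 that fell short of the call, and the groups overlapped through replicate B. Without replicate B *Pias3* was called lower in DMSO at day 3 (adjusted p 6.9e-05) and day 7 (9.1e-05), between days 1 and 3 (0.0013), and in ML-792 at day 3 (1.7e-06). In ML-792 *Pias3* held 1273, 755 and 1182 at day -2, 992, 430 and 966 at day 1, 525, 200 and 564 at day 3, and 438, 278 and 466 at day 7. At day 7 the groups did not overlap, and the log2 fold change was -1.44 ± 0.39 with an adjusted p of 0.00765, which was 0.0957 without replicate A and 0.063 without replicate C.

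*Pias4* held 219, 146 and 331 normalized reads at day -2 in DMSO, 292, 197 and 383 at day 1, 352, 282 and 560 at day 3, and 393, 330 and 414 at day 7. The largest difference, at day 3, was 0.78 ± 0.32 on the log2 scale with an adjusted p of 0.065. In ML-792 it held 296, 259 and 382 at day -2, 368, 190 and 428 at day 1, 465, 326 and 328 at day 3, and 287, 269 and 370 at day 7, and the log2 fold changes lay between -0.02 and 0.26. No comparison of *Pias4* in total reads was called, with all libraries or without replicate B, where the difference at day 3 in DMSO was 0.73 with an adjusted p of 0.0337.

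In DMSO 0 of 8 were called at day 1 against day -2 (3 had an unadjusted p under 0.05, and DESeq2 called 1), where 16.8% of all genes were called. At day 3 it was 0 of 8 (3 with an unadjusted p under 0.05, 1 by DESeq2) against 36%, and at day 7 it was 2 of 8 against 38.3%, both lower. Between days 1 and 3 it was 0 of 8 (2 with an unadjusted p under 0.05, 0 by DESeq2) against 23.2%, and between days 3 and 7 it was 0 of 8 (3 with an unadjusted p under 0.05, 1 by DESeq2, which was *Sae1*) against 10.9%. In ML-792 the counts were 1 of 8 at day 1 against 24.3%, 1 of 8 at day 3 against 41.1% and 2 of 8 at day 7 against 40.7%, and all 4 were lower than at day -2. The difference between the members' shares and these percentages was not tested. The replicate letter was not modelled in these fits. A fit with the letter as a block, given in the last section, called more members in DMSO. *Sumo3* was not called by day in either treatment, with log2 fold changes at day 7 of 0.64 in DMSO (adjusted p 0.0338) and at day 1 of 0.92 in ML-792 (adjusted p 0.0302). Without replicate B these were called (0.00214 and 6.5e-05), as was day 3 in ML-792 (7.1e-05).

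**Figure D3:**
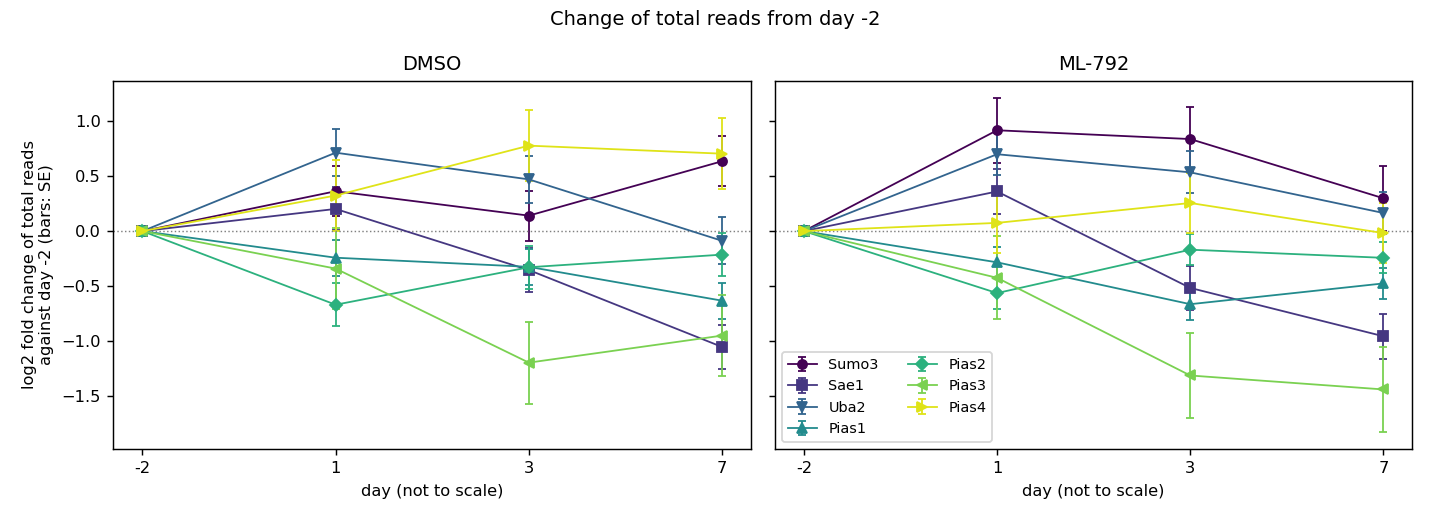
Log2 fold change of total reads against day -2 (vertical axis) by day in DMSO (left) and ML-792 (right) for the 7 genes other than Sumo2. Points are fitted values over 3 libraries per condition and bars are their SE. Sae1, Pias1, Pias2 and Pias3 end below 0 in both panels, and Sumo3 reaches 0.92 at day 1 in ML-792.

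ML-792 moved none of the E1 subunits or PIAS ligases past the threshold. Over all genes tested, 0%, 8.03%, 15.4% and 11.6% were called at days -2, 1, 3 and 7. How these 6 genes differ from those percentages was not tested. Over 6 genes and 4 days the log2 fold changes in ML-792 against DMSO lay between -0.36 and 0.43, and the smallest adjusted p was 0.13 (1 of 24 had an unadjusted p under 0.05, and DESeq2 called 1). The approximate 95% intervals of these differences, which are somewhat too narrow, ran from -1.20 to 1.04. Without *Pias3* and *Pias4*, whose libraries spread most, the intervals of *Sae1*, *Uba2*, *Pias1* and *Pias2* ran from -0.64 to 0.65. For *Sae1*, the log2 fold changes were 0.10, 0.25, -0.07 and 0.19 at days -2, 1, 3 and 7. Those of *Uba2* were -0.10, -0.11, -0.03 and 0.15.

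The smallest adjusted p belonged to *Pias1* at day 3, where its ML-792 libraries, at 329, 431 and 424 normalized reads, were all below those of DMSO, at 476, 572 and 475. This difference was -0.36 on the log2 scale (95% interval -0.64 to -0.08). DESeq2 called this difference, with an adjusted p of 0.0619.

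At day -2 no member was called in ML-792 against DMSO (1 of 8 had an unadjusted p under 0.05, and DESeq2 called 0), and 0% of all genes were, with 184 of 13331 at an unadjusted p under 0.05. At day 7, 0 of 8 were called (0 with an unadjusted p under 0.05, 0 by DESeq2), against 11.6% of all genes. The marker lists also differed between treatments. At day 3 in ML-792, 3 of 5 pre-adipocyte markers were called higher than in DMSO, summing to 9719 to 10993 against 4727 to 5982 normalized reads, and 2 of 6 adipocyte markers were called lower. At day 1, 2 of 5 pre-adipocyte and 2 of 6 adipocyte markers were called higher. At day 7, 2 of 6 adipocyte markers were called higher and 0 lower. The adipocyte markers then summed to 821933 to 887658 in ML-792 against 619775 to 703041 in DMSO. Of the 5 pre-adipocyte markers, 2 were called higher and 1 lower at day 7. The part of these marker differences in the *Sumo3* difference was not tested.

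**Figure D4:**
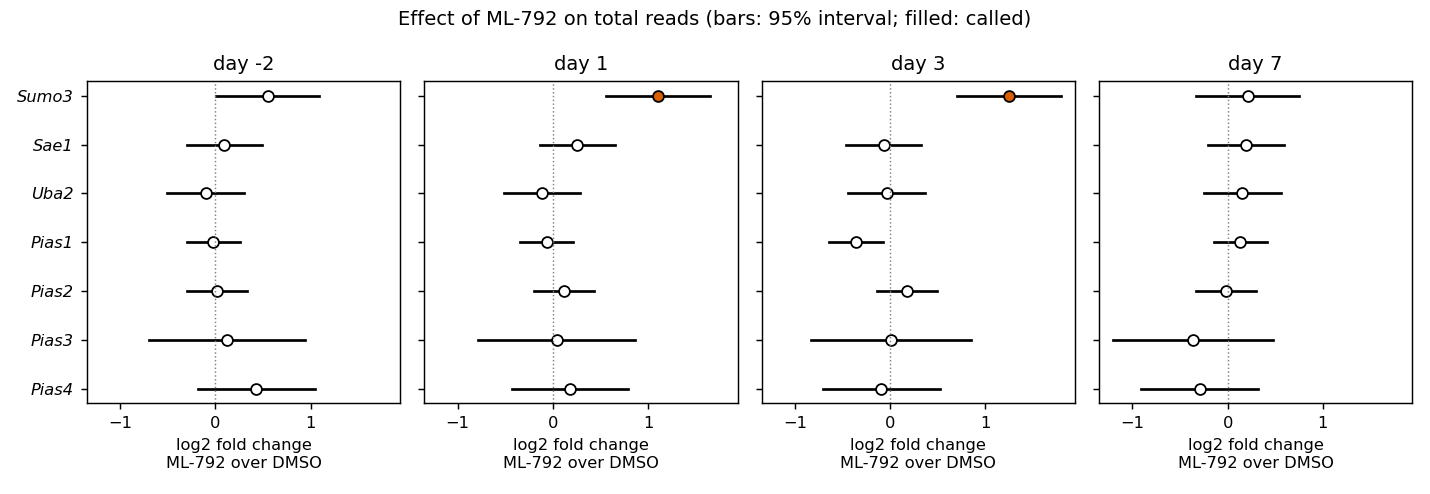
Log2 fold change of total reads in ML-792 over DMSO (horizontal axis) at each day for the 7 genes other than Sumo2. Points are fitted values over 3 libraries per group, bars are 95% intervals by a normal approximation, and filled points were called at an adjusted p under 0.1. The filled points are Sumo3 at day 1 (1.10) and day 3 (1.25).

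Labelled reads of the members were few, and 6 of 8 passed the filter on low counts, all but *Sumo2* and *Pias2*. With labelled reads scaled by the total reads of the library, as the study did, the median of all genes fell from day -2 by 1.20, 1.64 and 1.47 on the log2 scale at days 1, 3 and 7 in DMSO and by 1.37, 1.53 and 1.71 in ML-792, so that a gene which only follows its library falls too. The labelled share of all reads was 3.17% ± 0.49 (SD, n = 3) at day -2 in DMSO and 1.03% ± 0.09 at day 7. Whether this fall came from less synthesis or less label per transcript was not tested.

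*Pias1* had few labelled reads after day -2. Its raw labelled reads in DMSO were 67, 39 and 45 at day -2, 14, 17 and 20 at day 1, 8, 5 and 2 at day 3, and 6, 0 and 8 at day 7. As a share of its own reads this was 6.85% ± 1.76 at day -2 and 1.27% ± 1.16 at day 7 (SD, n = 3). Divided by the share over all entries of the same libraries, the values for days -2, 1, 3 and 7 were 2.14 ± 0.24, 2.21 ± 0.41, 1.06 ± 0.56 and 1.18 ± 1.07, so relative to its libraries it was no lower at day 1 than at day -2. In ML-792 the raw reads were 48, 49 and 46 at day -2, 8, 4 and 6 at day 1, 0, 4 and 9 at day 3, and 5, 11 and 0 at day 7, and the relative share was 2.04 ± 0.22, 1.15 ± 0.35, 1.30 ± 1.30 and 1.80 ± 1.84 in the same order of days. All day -2 libraries had more labelled *Pias1* reads than all later libraries of the same treatment. A long entry with many T bases gathers more conversions, so shares are compared between days and not between genes.

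Labelled *Pias1* reads were called lower at days 3 and 7 in DMSO and at days 1, 3 and 7 in ML-792. In DMSO the log2 fold changes were -2.91 (adjusted p 0.000477) and -3.02 (0.000362), which is 1.27 and 1.55 below the median of all genes. In ML-792 they were -2.50, -2.75 and -2.39 (adjusted p 0.00224, 0.000936 and 0.00263). When the scaling came from labelled reads instead of total reads they were -1.39 and -1.61 in DMSO and -1.16, -1.33 and -0.78 in ML-792, and none was called (adjusted p 0.0955 to 0.502). Without replicate A every one of these 5 calls was lost (adjusted p 0.0114 to 0.0518). Without replicate C the calls at day 3 in DMSO (0.0148) and at days 1 and 7 in ML-792 (0.012 and 0.0351) were lost, and without replicate B that at day 1 in ML-792 (0.0107).

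*Pias3* had 40, 8 and 21 raw labelled reads at day -2 in DMSO and 4, 2 and 0 at day 3, and was called lower there (log2 fold change -3.05, adjusted p 0.00804). In ML-792 it had 42, 32 and 25 at day -2, 8, 0 and 3 at day 3, and 3, 0 and 0 at day 7, and was called at both days (adjusted p 0.00599 and 0.000207). Fold changes against groups of so few reads carry little. The calls at day 3 were lost without replicate A (0.0827 in DMSO, 0.0277 in ML-792) and without replicate C (0.0671 and 0.014), and that in ML-792 also without replicate B (0.0364). In DMSO at day 7, without replicate B, *Pias3* was called as well (0.0036). The remaining labelled calls were in ML-792: *Uba2* at day 3 (-1.93), *Sae1* at day 7 (-1.67) and *Sumo3* at day 7 (-1.22), which were 0.40 below, 0.04 above and 0.49 above the median of all genes. Those calls too were lost without replicate A (adjusted p 0.214, 0.0178 and 0.0412) and without replicate C (0.0262, 0.0857 and 0.0548). None of the labelled calls remained when labelled reads were scaled by labelled reads, and *Sumo3* at day 7 then turned to 0.39 (adjusted p 0.47).

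Counted by comparison, labelled calls in DMSO were 0 of 6 at day 1 (1 with an unadjusted p under 0.05, 0 by DESeq2), 2 of 6 at day 3 and 1 of 6 at day 7, against 19.5%, 34.3% and 30% of all genes. They were 0 of 6 between days 1 and 3 (2 with an unadjusted p under 0.05, 0 by DESeq2) and 0 of 6 between days 3 and 7 (0 and 0), against 3.48% and 0.326%. In ML-792 they were 1, 3 and 4 of 6 at days 1, 3 and 7, against 27.1%, 35.2% and 39.3%. How the members' shares differ from these percentages was not tested.

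Between treatments no labelled call was made. At day 1 *Sumo3* had 56, 24 and 68 raw labelled reads in DMSO and 105, 55 and 113 in ML-792. Scaled to library size these were 51.5, 21.9 and 56.1 against 112, 63.97 and 105, with no overlap. The log2 fold change was 1.12 ± 0.39 (SE, n = 3 per group), 1.43 above the median of all genes, with an unadjusted p of 0.00609 and an adjusted p of 0.205. Scaled by labelled reads it was 1.38 with an adjusted p of 0.0517, past the threshold of 0.1. At day 3 *Sumo3* had 32, 24 and 43 against 85, 36 and 62, and the log2 fold change was 0.92 ± 0.40 with an adjusted p of 0.398. At day 7 it had 61, 64 and 58 against 46, 38 and 33, and the difference was -0.44 ± 0.40 with an adjusted p of 0.711, although the scaled groups did not overlap.

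The labelled share of *Sumo3* gives the same libraries in another form. At day 1 it was 0.70% ± 0.21 in DMSO and 0.73% ± 0.04 in ML-792, and at day 3 it was 0.74% ± 0.15 and 0.59% ± 0.03 (SD, n = 3), so the share of its reads that were labelled overlapped between treatments at day 1, and at day 3 only its highest ML-792 library, at 0.614%, was above the lowest DMSO library, at 0.598%. The counts of labelled calls in ML-792 against DMSO were 0 of 6 at days -2, 1, 3 and 7, with 0, 1, 1 and 0 members at an unadjusted p under 0.05 and 0 by DESeq2 at each day. All genes were called in 0%, 1.06%, 1.12% and 0.964%, and at day -2, 46 of 6434 had an unadjusted p under 0.05. The interaction called 0 of 6 (1 with an unadjusted p under 0.05, 0 by DESeq2) against 0.28%. Standard errors of the labelled differences ran from 0.38 to 1.29 on the log2 scale. Changes larger than these also went uncalled, down to -1.69 at day 7, so a difference that was not called is not shown to be absent.

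**Figure D5:**
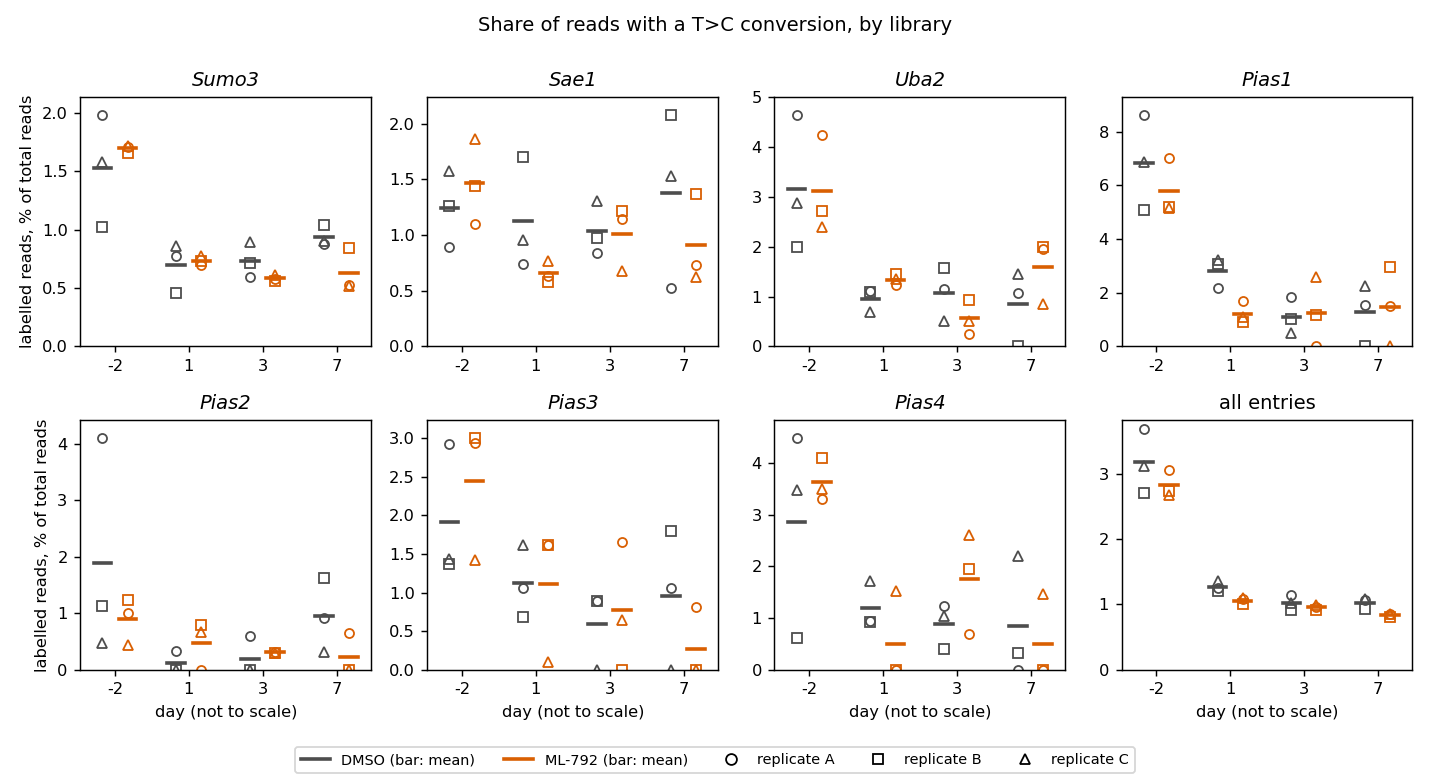
Labelled reads as a percent of total reads (vertical axes from 0, with a different range in each panel) by day for the 7 genes other than Sumo2 and for all entries together. Symbols are single libraries and bars are means of 3, in DMSO (grey) or ML-792 (orange). Pias1 has a mean of 6.85% at day -2 in DMSO and 1.27% at day 7, and all entries together have 3.17% and 1.03%.

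The other genes of the SUMO pathway were described from 3 lists, and a list of enzymes and modifiers of other ubiquitin-like systems stood beside them. Of 12 further conjugation genes, 4 were called in total reads at day 3 and 4 at day 7 in DMSO against day -2, with 2 higher and 2 lower at each day. *Mul1*, a mitochondrial ligase, rose by 1.00 on the log2 scale at day 3 and 1.45 at day 7. *Nsmce2*, the ligase of the SMC5/6 complex, fell by 1.37 and 1.20, and *Topors* fell by 0.83 and 1.33. The calls of *Mul1* and *Topors* at day 7 remained without each replicate letter in turn, and those of both genes at day 3 and of *Nsmce2* at both days were each lost without at least 1 letter, with adjusted p of up to 0.0137 and 0.0262 for *Nsmce2*, 0.0347 for *Mul1* and 0.0504 for *Topors*. The list's median log2 fold change was 0.00 at day 3 and -0.08 at day 7, beside 0.00 and -0.02 over all genes, of which 36% and 38.3% were called at these days. Those percentages are the background for the other lists too.

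Among 9 SUMO proteases, *Desi1* (1.73) and *Senp2* (0.82) were higher at day 3 in DMSO, and *Senp5* was lower at day 7 (-0.92). The call of *Desi1* remained without each letter, while that of *Senp2* was lost at an adjusted p of up to 0.0517 and that of *Senp5* at up to 0.052. Of 9 readers and SUMO-targeted ubiquitin ligases tested, 3 were called at day 3: *Rnf4* was higher (0.91) and *Pml* and *Sp100*, proteins of PML nuclear bodies, were lower (-1.87 and -4.29). At day 7, *Pml* (-1.71) and *Sp100* (-3.20) were called lower. *Rnf4* at day 3 and *Pml* and *Sp100* at day 7 were lost without 1 or more letters, with adjusted p of up to 0.0569, 0.0121 and 0.021. Of 18 genes of other ubiquitin-like systems, 4 were called at day 3 and 5 at day 7. *Isg15*, an interferon-induced modifier, was lower by 4.47 and 5.52 on the log2 scale at these days, and its E1 *Uba7* by 3.64 and 1.23. The *Uba7* call at day 7 was lost without a letter, at an adjusted p of up to 0.0589.

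In ML-792 against DMSO, the largest change of the lists was that of *Sp100*. It held 0.92, 7.29 and 9.90 normalized reads in DMSO at day 1 and 73.8, 32.6 and 61.5 in ML-792, and 5.47, 1.16 and 3.47 against 40.2, 39.3 and 50.0 at day 3. At day -2 it held 64.6, 50.1 and 91.5 in DMSO and 109, 56.6 and 81.1 in ML-792, and at day 7 it held 6.85 to 7.90 and 2.57 to 16.7. Its log2 fold changes of 3.17 at day 1 and 3.62 at day 3 were called without each replicate letter in turn (adjusted p up to 0.083), and the interaction of day and treatment had an adjusted p of 0.00629, which was 0.286 without replicate C. *Rwdd3*, which enhances conjugation, was lower at day 3 (-1.23, adjusted p 0.079), and *Nsmce2* at day 7 (-0.71, adjusted p 0.0803), and both calls were lost without any of the letters. None of the 9 proteases was called at any day (0 had an unadjusted p under 0.05 at each day, and DESeq2 called 0). None of the 18 genes of other systems was called either, with 0 to 2 at an unadjusted p under 0.05 by day and 1 called by DESeq2 at day 3.

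The genes whose total reads followed each member most closely were found by the Pearson correlation of log2 normalized reads over the 24 libraries, which share their days and treatments. *Klf13* (0.93) and *Ly6e* (0.90) were closest to *Sumo3*, *Bcl2l11* (0.94) and *Uggt1* (0.93) to *Sae1*, and *Polr3k* (0.88) to *Uba2*. *Prickle2* (0.91) and *Ptgr1* (0.90) were closest to *Pias1*, and *Cited2* and *Acot13* (0.87 and 0.86) to *Pias2*. For *Pias3* they were *Evc* (0.97) and *Exoc4* (0.95), and *Exoc3* (0.90) was among the closest to *Pias4*. *Sumo2*, with few reads, had *Lmbr1l* and *Kcnn4* at 0.71. These correlations describe the 24 libraries and carry no test.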

How the data were processed

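Per the labels and methods, the authors mapped 50-base QuantSeq reads to mm10 with SlamDunk (v0.4.3), after base calling with bcl2fastq (2.17.1.14), and counted them on RefSeq 3′UTRs. The authors deposited raw counts of total reads and of labelled reads for 91830 entries. Entry length and T bases were also in the tables, and 6 columns per table that matched no sample label were not used.

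Counts were tested with edgeR 4.0.16 (quasi-likelihood, robust) in R 4.3.3 over 26563 total and 10589 labelled entries left by filterByExpr, scaled by TMM factors of total reads, with Benjamini-Hochberg adjustment. Background percents count 1 entry per gene (13331 total, 6434 labelled). Thresholds were 0.01 between days, within each treatment, and 0.1 for ML-792. DESeq2 1.42.0, 2 other filters, scaling by labelled reads, single entries, a replicate block and leaving out replicates were alternatives. The code was tested on simulated data. Copies of 3′UTR windows were sought in GRCm38 with exact matches and blastn 2.17.0.

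The members and gene lists were chosen with earlier results of these data known. All 8 members are named in every comparison, with up to 4 called genes per list and up to 2 of the closest genes per member. Some genes that this rule names are not reported here. T bases counted in GRCm38 equalled those in the tables for all members. Replicates of a condition were biological per the methods, and their counts differed beyond sampling noise. Letters were not used as pairs in the main fits, and the labels do not say what a letter stands for. Deviations of same-letter pairs of libraries were mostly correlated, though not in every pair. Of these pairs 68 of 84 were over 0.1 (mean 0.19, -0.17 to 0.52), against 20 of 168 with different letters (mean -0.09). The main fits therefore leave variation between letters in their error.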

Additional observations from a re-analysis of the deposited data

How the results depend on the processing

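Over the members, 1717 values under alternatives covered 182 results, and 1603 stayed on their side of the threshold (74 of these, not called in either fit, changed direction), while 57 lost a call, 55 gained one and 2 reversed. The reversals were *Pias2* at day 1 in ML-792 from its other entry (0.41) and labelled *Sumo3* at day 7 in ML-792 scaled by labelled reads (0.39). The number of members called in total reads between days in DMSO was 2, and it was 4 with DESeq2, 1 with at least 10 reads summed, 7 with the replicate block and 0 to 4 when one replicate was left out. Between neighbouring days it was 0, and 1 with DESeq2, 1 with at least 1 read, 3 with the replicate block and 0 to 1 when one replicate was left out. In ML-792 by day it was 4, and 2 with at least 10 reads summed and 0 to 4 when one replicate was left out. For ML-792 against DMSO it was 1, and 2 with DESeq2, 2 with the replicate block and 0 to 2 when one replicate was left out. For the interaction it was 0, and 1 with at least 1 read, 1 with the replicate block and 0 to 1 when one replicate was left out. Labelled calls were 2 in DMSO and 5 in ML-792 by day, and 0 and 0 scaled by labelled reads and 0 to 2 and 1 to 5 when one replicate was left out. For labelled ML-792 against DMSO they were 0, and 1 with the replicate block and 1 scaled by labelled reads, in both cases *Sumo3*. Of 7 members, 6 had a lower labelled share at day 7 than at day -2 in DMSO, and 3 when divided by the share over all entries. The change of the *Uba2* to *Sae1* ratio was 0.99 in total and -1.63 in labelled reads, where 1 DMSO library of day 7 held 0 labelled *Uba2* reads. The cause of the other changes was not tested. Same letters share only a letter in the labels. For 22 of 24 libraries the mean correlation of deviations with libraries of other conditions was highest for their own letter, a hint from the data and not the design.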
